A study of Mus musculus with 23 samples.

Results

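Ezh1, Ezh2, Eed, Suz12, Bmi1, Ring1, Rnf2, Cbx2, Cbx7 and Cbx8 are 10 genes of the Polycomb repressive complexes, out of 19937 genes read on 23 Affymetrix arrays, each holding progenitors sorted from mouse bone marrow. They were taken by name, each from probe sets whose only gene symbol is the member, and all 10 were measured. Eed alone had 2 probe sets, and the brighter one was used. Values are log2 levels made with RMA, which equalises the arrays and summarises the probes of a set. A difference of 1 is a 2-fold change, and levels are compared within a gene across arrays, not between genes.

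The study asked how loss of C/EBPα, a transcription factor needed for progenitors to become granulocytes and monocytes, bears on leukaemia induced by the fusion protein MLL-AF9. Knockout (KO) cells came from Mx.1-Cre+ C/EBPa f/f mice, in which Mx.1-Cre is switched on by interferon in marrow and in other tissues, and control cells came from Mx.1-Cre- C/EBPa f/f mice. All donors, controls included, had received 3 injections of poly I:C, which induces interferon. Strain and age are not given in the sources used here.

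Leukaemic granulocyte-macrophage progenitors (L-GMPs) of KO genotype were on 2 arrays from secondary recipients and 1 array from a primary recipient. All 3 descend from a single leukaemia, which arose in a recipient injected with vectors expressing IL-3 and GM-CSF after transplantation. Control L-GMPs, with no such injection named in the labels, were on 2 arrays from secondary and 2 from primary recipients. KO MLL-AF9 progenitors that had not become leukaemic were GFP+ common myeloid progenitors (CMPs, 3 arrays) and GFP+ KSLs (Lin-Sca-1+c-kit+ stem-enriched cells, 2 arrays). Of these, CMP and KSL replicates 1 share a mouse, as do replicates 2. The cells behind all these groups had been cultured in stem cell factor, thrombopoietin and IL-3, given MLL-AF9 together with GFP by an MSCV retrovirus, and injected into irradiated congenic mice with congenic support marrow. Untransplanted KO CMPs (4 arrays), control GMPs (3 arrays) and control CMPs (4 arrays) were taken 5 days after the last of the injections. A kit for amplifying whole transcriptomes of small samples was used on RNA of all groups.

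Polycomb proteins keep genes silent through chemical marks on histones. Polycomb repressive complex 2 (PRC2) methylates lysine 27 of histone H3, with Ezh2 or its paralogue Ezh1 as the catalytic subunit and with Eed and Suz12 as subunits the enzyme cannot work without. Polycomb repressive complex 1 (PRC1) attaches ubiquitin to histone H2A through Rnf2 (RING1B) or Ring1 (RING1A). Its canonical forms also hold a Pcgf protein such as Bmi1 and a Cbx protein, Cbx2, Cbx7 or Cbx8 among them, whose chromodomain can bind methylated lysine 27. Bmi1 is known for sustaining self-renewal of blood stem cells and leukaemic cells, in part by silencing Cdkn2a, and Ezh2 is known to be high in dividing cells while Ezh1 is more abundant in resting ones.

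In 11 planned comparisons the 10 genes gave 110 tests and 14 calls, 5 higher and 9 lower. A call is an adjusted p below 0.05, Benjamini-Hochberg over all 19937 genes, from limma, a linear model with a variance estimate shared between genes. The calls fell on 6 members (Ezh1, Ezh2, Suz12, Bmi1, Rnf2 and Cbx2) and in 6 comparisons, and Eed, Ring1, Cbx7 and Cbx8 had none. A group made up of primary and secondary L-GMPs, or of KSLs and CMPs, entered as the mean of its group means. No label says that replicates other than those named above came from separate mice, so the p-values reflect sample-to-sample spread, which may be technical. In bulk samples fewer cells of a type and less RNA per cell cannot be told apart.

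**Figure D1:**
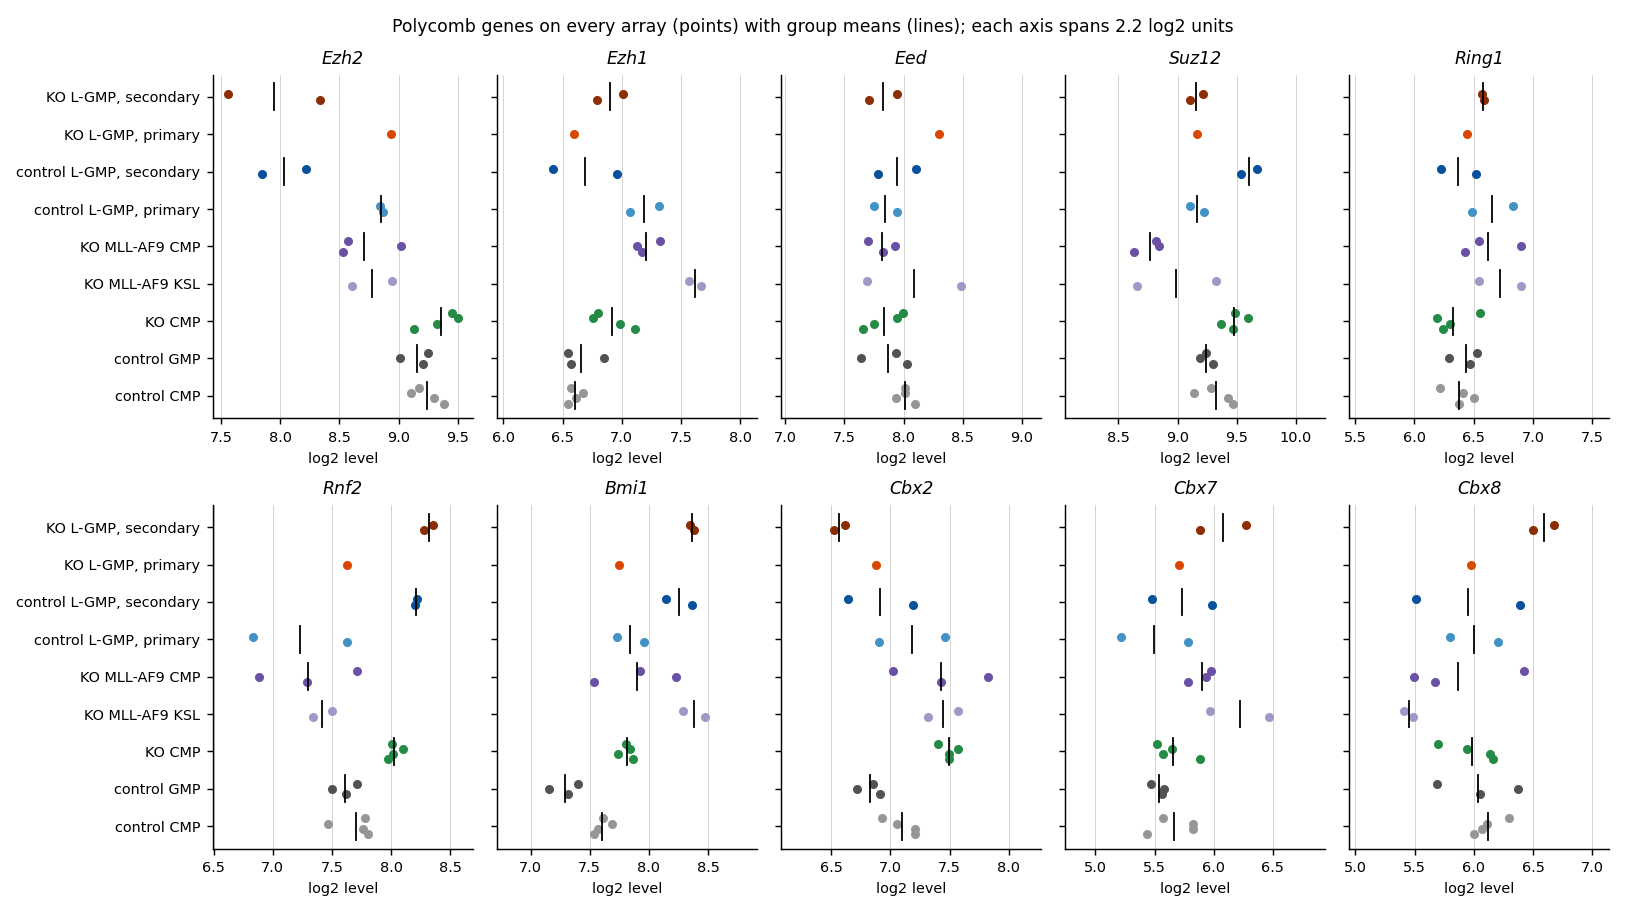
Log2 level (horizontal axis) of each of the 10 genes on every array (points) in the 9 groups (rows), with a line at the mean of each group of more than 1 array. Secondary L-GMPs hold the lowest Ezh2 levels and high Rnf2 and Bmi1 levels, and Eed and Ring1 differ little between groups.

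Cebpa, the deleted gene, was lower on all KO arrays than on all control arrays. Its group means were 4.61 to 5.31 in the KO groups and 7.36 to 7.82 in the control groups. Array medians lay between 5.37 and 5.50, and no member was at the floor of 3 on any array. Arrays differed in noise: the median absolute residual was 0.143 to 0.176 on the MLL-AF9 CMP arrays, 0.155 on the KSL arrays and 0.15 on the primary control L-GMP arrays, against 0.0942 on the secondary control L-GMP arrays. It was 0.0776 on the secondary KO L-GMP arrays and 0.0683 to 0.0812 on the untransplanted CMP and GMP arrays. Comparisons of MLL-AF9 CMPs or control L-GMPs with untransplanted groups thus set noisier arrays against quieter ones, with a shared spread per gene. Fcgr3, which encodes the receptor that separates GMPs from CMPs in the gate, averaged 9.51 to 10.12 in the L-GMP groups, 9.69 in GMPs, 7.96 in KO CMPs, 7.90 in control CMPs and 5.48 in MLL-AF9 CMPs. On the KSL arrays it was 5.63 and 8.87. Ly6a, the gene of Sca-1, had no probe set of its own symbol. Array batches or scan dates were not used here, so leukaemic and untransplanted groups cannot be told apart from array batches.

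Between leukaemic and normal GMPs, Bmi1 rose and Ezh2 fell in L-GMPs of either genotype. All normal GMPs were of control genotype, so in the KO comparison genotype and the vector injection differ along with leukaemic state. Culture, the MLL-AF9 retrovirus and transplantation differ in both comparisons, and none of these can be told apart from leukaemic state. Bmi1, whose gene lies at chr2:18677018-18686629 (GRCm38.p6), is the Pcgf subunit of canonical PRC1, and Ezh2, at chr6:47530274-47595270, is the methyltransferase of PRC2. Sequence at their annotated starts is shown because these 2 members moved in opposite directions. The sequences are the 250 bases before the annotated start of Bmi1, chr2:18676768-18677017, plus strand, and 30 bases around the annotated start of Ezh2, chr6:47595009-47595038, minus strand, both from RefSeq on GRCm38.p6, with an E-box (CACGTG) in capitals in the first and an E2F-type motif in capitals in the second. The Ezh2 start in this table lies inside the gene's span and the motif begins at base 4 after it, so the 30 bases need not be promoter sequence.
Bmi1: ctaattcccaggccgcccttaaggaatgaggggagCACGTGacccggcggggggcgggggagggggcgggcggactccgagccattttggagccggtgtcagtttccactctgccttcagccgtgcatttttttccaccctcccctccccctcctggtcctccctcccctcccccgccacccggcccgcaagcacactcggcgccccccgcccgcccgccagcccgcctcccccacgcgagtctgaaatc
Ezh2: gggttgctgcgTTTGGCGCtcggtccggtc
The E-box is the binding letters of Myc and related factors. CACGTG was present in 7.15% of 32851 RefSeq windows of 27025 genes (250 bases before to 50 after a start, both strands) and, among the members, in Bmi1 and Cbx8. E2F factors drive cell cycle genes. The E2F motifs searched were TTTCCCGC, TTTGGCGC, TTTCGCGC and TTTGCCGC, which were present in 2.26% of the windows and, among the 9 members with a window, in Ezh2 and Suz12. These matches are letters only.

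On the KO L-GMP arrays Bmi1 was 8.38 and 8.35 in secondary recipients and 7.75 in the primary one. It was 8.36 and 8.14 in secondary and 7.96 and 7.73 in primary control L-GMPs, and 7.32, 7.16 and 7.40 in control GMPs. Every L-GMP array was above every GMP array. The log2 change was 0.77 (SE 0.14, adjusted p = 0.00205) in KO L-GMPs, a 1.70-fold rise, and 0.76 (SE 0.12, adjusted p = 0.000769) in control L-GMPs, a 1.69-fold rise. Both comparisons use the same 3 GMP arrays. Of all genes, 3.89% were called higher and 6.49% lower in KO L-GMPs, and 10.6% higher and 14.7% lower in control L-GMPs.

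Ezh2 was 8.34 and 7.56 in secondary and 8.93 in primary KO L-GMPs. In control L-GMPs it was 7.85 and 8.22 in secondary and 8.86 and 8.84 in primary recipients, and in control GMPs 9.21, 9.01 and 9.25. No L-GMP array reached the lowest GMP array. Ezh2 fell by 0.72 on the log2 scale in KO L-GMPs (SE 0.19, adjusted p = 0.0232) and by 0.71 in control L-GMPs (SE 0.17, adjusted p = 0.00771), a 1.64-fold difference in each. The arrays of the compared sides were apart for 37.2% of all genes in the KO and 30.8% in the control comparison.

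Bmi1 and Ezh2 were the members called in either comparison, 2 of 10, where 10.4% and 25.3% of all genes were called in the KO and the control comparison. In control L-GMPs both calls held when each array was left out in turn. The Ezh2 difference was smaller in primary recipients, with a change of −0.30 (adjusted p = 0.185) from primary control L-GMPs alone. From the primary KO L-GMP array alone both KO calls ended, with changes of 0.46 for Bmi1 (adjusted p = 0.289) and −0.22 for Ezh2 (adjusted p = 0.687). In the KO comparison the Ezh2 call ended without secondary KO L-GMP replicate 2, GMP replicate 1 or GMP replicate 3 (adjusted p up to 0.0811). Counting the 3 arrays of the KO leukaemia as 1 sample left both changes in size, with adjusted p = 0.0544 for Bmi1 and 0.097 for Ezh2. The remaining members had log2 changes between −0.10 and 0.36 in KO L-GMPs and between −0.06 and 0.28 in control L-GMPs.

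A list of 18 proliferation genes, of which 17 were measured, moved in the same comparisons. Of the 17 genes, 11 were called lower in KO L-GMPs and 13 in control L-GMPs, and none higher. The mean of the list was 7.82 to 8.15 on secondary and 8.66 on the primary KO L-GMP array, 8.14 to 8.18 on secondary and 8.30 to 8.40 on primary control L-GMP arrays, and 9.06 to 9.10 on GMP arrays. The list's part in the Bmi1 and Ezh2 changes was not tested. Over the 9 group means, which were normalised together, the list's mean had Pearson r = −0.956 with Bmi1 and 0.741 with Ezh2. Among members not called here, r was −0.768 with Cbx7, −0.685 with Ezh1 and −0.662 with Ring1, and between −0.114 and 0.298 with the rest. Markers of mast cells, basophils and eosinophils averaged 5.29 to 5.37 on KO L-GMP arrays, 5.85 to 6.30 on control L-GMP arrays and 7.50 to 8.47 on GMP arrays, and their part was not tested either.

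**Figure D2:**
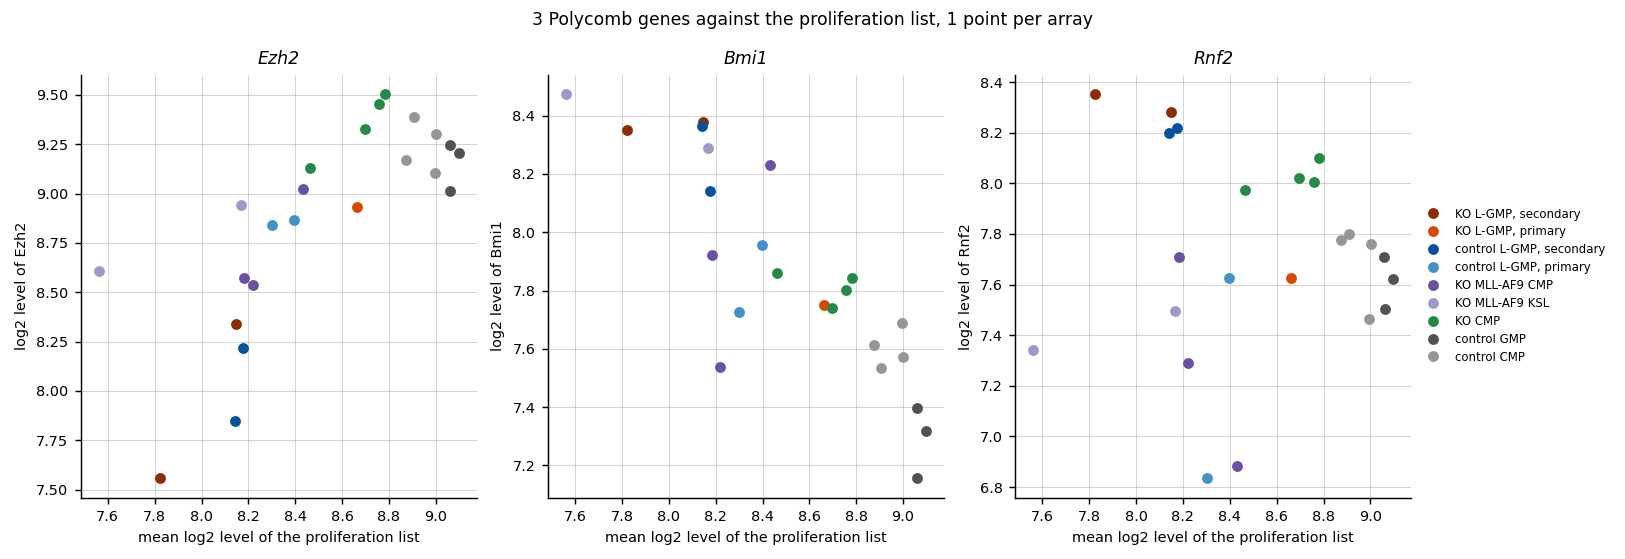
Log2 level of Ezh2, Bmi1 and Rnf2 (vertical axes) against the mean log2 level of the proliferation list (horizontal axes), 1 point per array, coloured by group. GMP arrays, at 9.06 to 9.10 on the list, have the lowest Bmi1 levels, and the array lowest in Ezh2, secondary KO L-GMP replicate 2 at 7.56, has a list mean of 7.82.

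Within the control leukaemias, 2 members were called between secondary and primary recipients. Rnf2, the main ubiquitin ligase of PRC1 (chr1:151469398-151500991), rose and Ezh2 fell in secondary control L-GMPs. Rnf2 was 8.20 and 8.22 in secondary and 7.63 and 6.83 in primary control L-GMPs. The primary pair was wide apart and both of its arrays lay below the secondary ones. The change was 0.98 (SE 0.23, adjusted p = 0.0175), a 1.97-fold rise. Ezh2, at the levels given above, fell by 0.82 (SE 0.22, adjusted p = 0.0346). In this comparison 7.7% of all genes were called, 4.04% higher and 3.67% lower, and the arrays of the sides were apart for 41.5%, as they were for 5 of the 10 members.

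Markers of mature neutrophils moved in the same comparison, with array means of 8.004 to 8.264 in secondary and 6.44 to 7.50 in primary control L-GMPs. All 6 had higher means in secondary recipients, with a median change of 0.84, and 1 was called, Lcn2, which encodes a granule protein (3.76, adjusted p = 0.00232). F13a1, a monocyte marker, fell by 1.56 and Prg2, an eosinophil marker, fell by 2.37 in secondary recipients. Most genes of their lists went the other way. Of 6 monocyte and macrophage genes 4 had a positive change (median 0.04). So did 4 of 6 mast cell, basophil and eosinophil genes (median 0.07). The part of these cell types in the Rnf2 and Ezh2 changes was not tested.

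These calls rested on few arrays. The Ezh2 call ended whichever of the 4 arrays was left out, with adjusted p up to 0.205. The Rnf2 call ended without primary replicate 2, the array at 6.83 (log2 change 0.58, adjusted p = 0.186), and without either secondary array. With arrays weighted by their noise, adjusted p was 0.321 for Ezh2 and 0.0765 for Rnf2.

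In the KO leukaemia the comparison of the 2 secondary arrays with the primary one was added after the data were seen. Ezh2 changed by −0.98 (SE 0.27, adjusted p = 0.355), Rnf2 by 0.69 (SE 0.28, adjusted p = 0.721) and Bmi1 by 0.61 (SE 0.20, adjusted p = 0.502). No member was called by limma, 3 of 10 had an unadjusted p below 0.05, and 0.0351% of all genes were called. Rnf2 was 8.28 and 8.35 on the secondary arrays and 7.63 on the primary one. The lone primary array was assumed to vary like the other groups. Of the 17 proliferation genes, 1 was called lower in secondary than in primary control L-GMPs and none in the KO leukaemia, where the median change of the list was −0.69.

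Against the non-leukaemic KO MLL-AF9 progenitors, Ezh1 fell in L-GMPs of either genotype. Gate and leukaemic state differ in both comparisons, and part of the L-GMPs came from secondary recipients. Genotype also differs in the comparison of control L-GMPs, and the vector injection in that of KO L-GMPs. These cannot be told apart. Ezh1, at chr11:101191115-101226463, is the alternative methyltransferase of PRC2. Its promoter is shown for contrast with the sequence at the Ezh2 start, since none of the motifs searched lies in it. The sequence is the 250 bases before the annotated start, chr11:101226464-101226713, minus strand, GRCm38.p6, RefSeq.
Ezh1: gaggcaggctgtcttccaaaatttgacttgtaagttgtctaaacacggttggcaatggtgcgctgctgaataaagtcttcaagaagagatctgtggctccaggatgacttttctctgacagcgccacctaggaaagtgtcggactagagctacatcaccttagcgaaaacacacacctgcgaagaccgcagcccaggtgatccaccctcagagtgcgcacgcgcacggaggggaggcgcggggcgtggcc
Besides E2F and E-box letters, the motifs were the C/EBP type TTGCNNAA, present in 10.8% of all windows and in Cbx8 alone among the members, and CCAAT, present in 37.4% and in Ezh2, Eed, Suz12, Cbx7 and Cbx8.

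Ezh1 was 6.79 and 7.01 on secondary and 6.59 on the primary KO L-GMP array. It was 6.96 and 6.42 on secondary and 7.07 and 7.31 on primary control L-GMP arrays. In the progenitors it was 7.17, 7.13 and 7.32 in MLL-AF9 CMPs and 7.67 and 7.57 in MLL-AF9 KSLs. KO L-GMP arrays were all below the progenitor arrays, and control L-GMP arrays overlapped them through the primary recipients. Ezh1 fell by 0.67 in KO L-GMPs (SE 0.13, adjusted p = 0.00177) and by 0.47 in control L-GMPs (SE 0.11, adjusted p = 0.00742). Both comparisons share the 5 progenitor arrays, and 13.2% of all genes were called in the KO comparison, 7.27% higher and 5.93% lower, and 19.0% in the control comparison, 8.51% higher and 10.5% lower.

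Cbx2, a chromodomain subunit of canonical PRC1, fell in KO L-GMPs. The gene lies at chr11:119023019-119031275, and Cbx8 lies 5027 bases away at chr11:119036303-119040913. Cbx2 was 6.52 and 6.62 in secondary and 6.88 in primary KO L-GMPs, against 7.42, 7.83 and 7.02 in MLL-AF9 CMPs and 7.32 and 7.57 in MLL-AF9 KSLs. The sides did not overlap, as for 12.6% of all genes, and Cbx2 fell by 0.71 (SE 0.17, adjusted p = 0.011). In control L-GMPs its change was −0.39 (adjusted p = 0.0905). Cbx8 ran the other way in KO L-GMPs without being called, at 0.63 (SE 0.23, adjusted p = 0.0921), and over the 9 group means the 2 neighbours had Pearson r = −0.73.

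Rnf2 rose by 0.61 in KO L-GMPs over the progenitors (SE 0.17, adjusted p = 0.0275). Its levels in the progenitors were 7.29, 6.88 and 7.71 in MLL-AF9 CMPs and 7.34 and 7.50 in MLL-AF9 KSLs, so that the primary KO L-GMP array, at 7.63, lay within their range. The call ended without either secondary KO array or without KSL replicate 1 (adjusted p up to 0.0774). It also ended when the arrays of 1 leukaemia, and those of 1 mouse, entered as a random block (change 0.60, adjusted p = 0.0685), under which the Ezh1 and Cbx2 calls held, and from the primary KO array alone (change 0.27, adjusted p = 0.738). In control L-GMPs the change was 0.36 (adjusted p = 0.117), and it was −0.13 with primary control L-GMPs alone.

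Suz12 rose in control L-GMPs over the progenitors, which differ from them in genotype, gate and leukaemic state, and part of the L-GMPs came from secondary recipients. Suz12, at chr11:79993106-80034123, is a core subunit that PRC2 needs for its activity and stability. Its promoter is shown as the other member with E2F letters, here in capitals, over the 250 bases before the annotated start, chr11:79992856-79993105, plus strand, GRCm38.p6, RefSeq.
Suz12: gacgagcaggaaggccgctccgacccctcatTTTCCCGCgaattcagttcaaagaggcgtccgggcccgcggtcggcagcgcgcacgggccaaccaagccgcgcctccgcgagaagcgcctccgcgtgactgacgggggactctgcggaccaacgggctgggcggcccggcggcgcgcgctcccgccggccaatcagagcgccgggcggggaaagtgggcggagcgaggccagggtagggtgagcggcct
Suz12 was 9.53 and 9.67 in secondary and 9.22 and 9.11 in primary control L-GMPs, against 8.63, 8.85 and 8.82 in MLL-AF9 CMPs and 8.66 and 9.32 in MLL-AF9 KSLs. KSL replicate 2 lay above both primary L-GMP arrays. The change was 0.50 (SE 0.11, adjusted p = 0.00409). In KO L-GMPs, where Suz12 was 9.11 and 9.21 in secondary and 9.16 in primary recipients, the change was 0.28 (adjusted p = 0.158).

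The calls against the progenitors changed with the model. With array weights the control L-GMP calls of Ezh1 (adjusted p = 0.202) and Suz12 (adjusted p = 0.0636) were lost, and with the KO leukaemia counted as 1 sample the KO calls were lost (adjusted p = 0.054 for Ezh1, 0.176 for Cbx2 and 0.285 for Rnf2). With primary L-GMPs alone the control L-GMP calls were lost, at −0.22 for Ezh1 (adjusted p = 0.214) and 0.28 for Suz12 (adjusted p = 0.2), and Cbx7 was called instead (−0.56, adjusted p = 0.0462). In KO L-GMPs the Ezh1 call then held (−0.82, adjusted p = 0.00638) and the Cbx2 call was lost (−0.55, adjusted p = 0.274). In fits of the compared groups alone all 5 calls were lost, with the same changes (adjusted p between 0.0726 and 0.294). Monocyte and macrophage markers averaged 8.65 to 8.74 on KO L-GMP arrays and 8.23 to 8.96 on control L-GMP arrays, against 4.44 to 5.36 on progenitor arrays. Erythroid markers averaged 5.89 to 6.11 on KO and 5.17 to 5.80 on control L-GMP arrays, against 6.89 to 8.97 on progenitor arrays, and lymphoid markers reached 7.08 on a KSL array. Primary granule genes had median changes of 5.28 in KO and 4.50 in control L-GMPs, with 6 and 5 of 6 called higher. Of 17 proliferation genes 4 were called higher and none lower in each comparison. Mast cell, basophil and eosinophil markers averaged 5.50 to 9.03 on progenitor arrays. The part of these other cell types and of proliferation in the changes was not tested.

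Between CMPs that carried MLL-AF9 and CMPs that did not, both KO, 3 members fell. The MLL-AF9 CMPs had also been cultured and transplanted, so these steps and MLL-AF9 cannot be told apart. Suz12 was 8.63, 8.85 and 8.82 in MLL-AF9 CMPs and 9.47, 9.37, 9.59 and 9.48 in KO CMPs. Rnf2 was 7.29, 6.88 and 7.71 in MLL-AF9 CMPs and 7.98, 8.02, 8.10 and 8.01 in KO CMPs. Ezh2 was 8.53, 9.02 and 8.57 in MLL-AF9 CMPs and 9.13, 9.33, 9.51 and 9.45 in KO CMPs. In each of the 3 genes all MLL-AF9 arrays lay below all KO CMP arrays, as the sides did for 16.3% of all genes.

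Suz12 fell by 0.71 (SE 0.12, adjusted p = 0.00453), Rnf2 by 0.73 (SE 0.17, adjusted p = 0.026) and Ezh2 by 0.65 (SE 0.17, adjusted p = 0.0404). Of all genes 4.88% were called, and 3.36% were called lower. The Suz12 call held in each of 7 fits that left out an array. The Rnf2 call ended in 6 of 7, held without MLL-AF9 CMP replicate 3, and had its highest adjusted p, 0.0991, without MLL-AF9 CMP replicate 2. The Ezh2 call ended in 5 of 7, by either MLL-AF9 CMP replicate 1 or 3 or by KO CMP replicate 2, 3 or 4, with adjusted p up to 0.128. It also ended with array weights, in the compared groups alone and with the replicate number as a block (adjusted p up to 0.41). The Rnf2 call ended in the compared groups alone and with the block (adjusted p up to 0.409). The Suz12 call ended with the block (adjusted p = 0.395). Of the 17 proliferation genes 3 were called lower in MLL-AF9 CMPs, with list means of 8.18 to 8.43 in MLL-AF9 CMPs against 8.46 to 8.78 in KO CMPs. Of 6 primary granule genes 3 were called lower, Mpo (−3.97), Prtn3 (−1.79) and Ctsg (−1.79), with list means of 5.63 to 6.28 in MLL-AF9 CMPs against 6.80 to 8.08 in KO CMPs. Cd34, a marker of the gate, fell by 1.83. Mast cell, basophil and eosinophil markers averaged 5.50 to 8.60 on the MLL-AF9 CMP arrays and 5.59 to 6.44 on the KO CMP arrays. The part of these genes' cell types and of proliferation in the 3 changes was not tested.

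Between MLL-AF9 CMPs and MLL-AF9 KSLs no member was called by limma, where 3.32% of all genes were called and 2 members had an unadjusted p below 0.05. Bmi1 was 7.54, 8.23 and 7.92 in the CMPs and 8.48 and 8.29 in the KSLs, a change of −0.49 (SE 0.15, adjusted p = 0.0815). Ezh1 changed by −0.41 (SE 0.15, adjusted p = 0.142). For these 2 genes, and for Cbx8 with a change of 0.42, the sides did not overlap, as for 19.4% of all genes. Of these arrays, 2 CMP and 2 KSL arrays came from the same mice. In the 5 arrays alone no gene was called, with or without the mouse as a replicate block, and the residual degrees of freedom were 1 with it and 3 without, so the block can show little here.

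**Figure D3:**
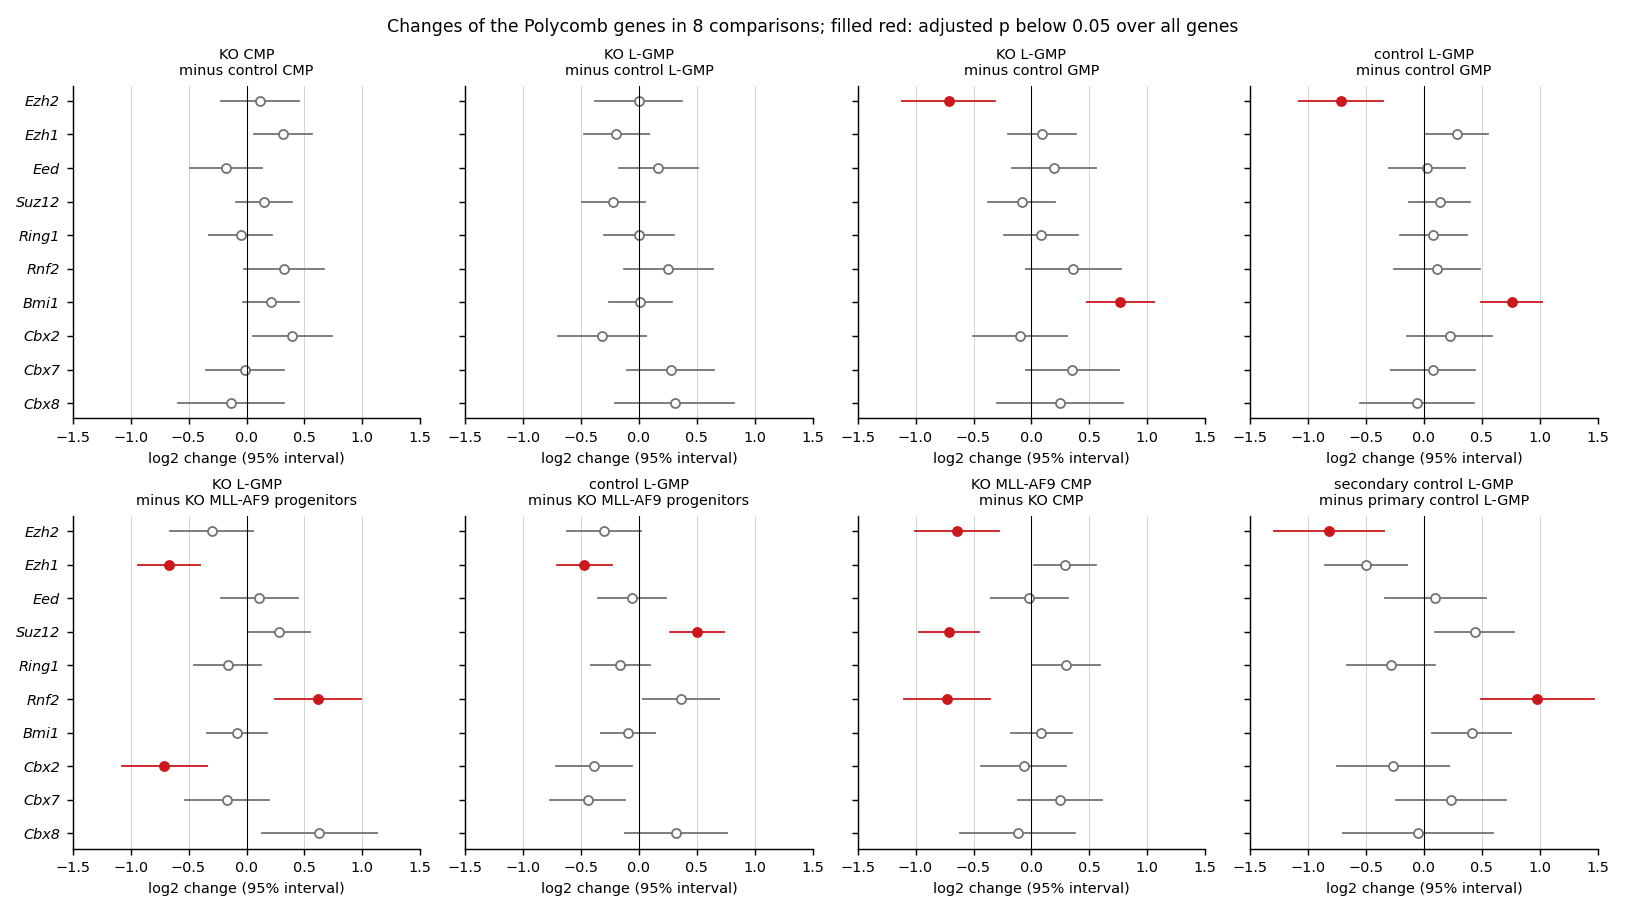
Log2 change (point) with its 95% interval (line) of the 10 genes in 8 comparisons, the first group named minus the second. Filled red points have an adjusted p below 0.05 over all genes, and open grey points do not, as for every member in both KO against control comparisons.

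In KO against control CMPs, the comparison of C/EBPα loss without leukaemia, no member was called by limma, 2 had an unadjusted p below 0.05, and 4.91% of all genes were called. In 4 members every KO array lay above every control array, as the sides were apart for 21.1% of all genes. Cbx2 was 7.50, 7.49, 7.57 and 7.40 in KO CMPs and 7.21, 7.20, 7.06 and 6.92 in control CMPs, a change of 0.39 (SE 0.16, adjusted p = 0.218). Ezh1 was 7.11, 6.99, 6.76 and 6.80 in KO CMPs and 6.55, 6.61, 6.67 and 6.57 in control CMPs, a change of 0.31 (SE 0.12, adjusted p = 0.167). The other 2 were Rnf2 with a change of 0.33 (adjusted p = 0.367) and Bmi1 with 0.21 (adjusted p = 0.435).

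Markers of cell types differed far more between these CMPs. Of 6 primary granule genes 5 were called lower (median change −3.32), with list means of 6.80 to 8.08 in KO and 9.84 to 10.87 in control CMPs. Of 6 monocyte and macrophage genes 5 were called lower (median change −3.41), with list means of 4.60 to 5.43 in KO and 7.97 to 8.33 in control CMPs. Of the 17 proliferation genes 2 were called lower, and 16 had a negative change. The part of these cell types and of proliferation in the changes between KO and control CMPs, of members and of the other genes below, was not tested.

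These 4 members were called when the fit was limited to the 8 CMP arrays (adjusted p = 0.0125 for Cbx2, 0.0215 for Bmi1, 0.0327 for Rnf2 and 0.0433 for Ezh1). The same 4 were called with array weights. The number of all genes called was 3220 in the limited fit and 3762 with array weights, against 979 in the fit of all arrays. The remaining 6 members had changes of −0.18 to 0.15.

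In KO against control L-GMPs no member was called by limma and none had an unadjusted p below 0.05, with 3.27% of all genes called. The largest change was that of Cbx2 at −0.32 (95% interval −0.70 to 0.06, adjusted p = 0.343). Bmi1 changed by 0.01 (95% interval −0.26 to 0.28) and Ezh2 by −0.002 (95% interval −0.38 to 0.37). A missed threshold does not show equal levels, and 1 KO leukaemia stood for its genotype. The difference between the KO effect in L-GMPs and that in CMPs was tested as an interaction and called no member, where 2.8% of all genes were called and 3 members had an unadjusted p below 0.05. It was −0.72 for Cbx2 (SE 0.24, adjusted p = 0.133) and −0.51 for Ezh1 (SE 0.175, adjusted p = 0.145). Array weights turned the Cbx2 difference into a call (adjusted p = 0.0338). It was also called without primary control L-GMP replicate 1 (adjusted p = 0.0378), and that of Ezh1 was called without secondary control L-GMP replicate 2 (adjusted p = 0.0426) and with primary L-GMPs alone.

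Between normal GMPs and CMPs of control mice no member was called by limma, 1 had an unadjusted p below 0.05, and 1.05% of all genes were called. Bmi1, at 7.32, 7.16 and 7.40 in GMPs and 7.54, 7.57, 7.69 and 7.61 in CMPs, changed by −0.31 (SE 0.12, adjusted p = 0.459) with no overlap of the arrays. With array weights it was called (adjusted p = 0.0176). Cbx2 changed by −0.27 (adjusted p = 0.899), also with no overlap, which 16.3% of all genes had. GMPs stood lowest of the 9 groups in Bmi1.

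Over the 9 groups the means of a member spanned between 0.40 on the log2 scale in Ring1 and 1.41 in Ezh2, with a median of 0.97, and 5 of 10 spanned at least 1. Among all genes the median span was 0.69 and 28.9% spanned at least 1. These spans are a description with no test. The pooled standard deviation within groups was 0.16 in Bmi1, Ezh1 and Suz12, and 0.31 in Cbx8.

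Ezh2 was highest in KO CMPs (9.35 ± 0.17, SD, n = 4), followed by control CMPs (9.24 ± 0.13, n = 4) and GMPs (9.16 ± 0.12, n = 3), which overlapped. It was lowest in secondary L-GMPs, at 7.95 ± 0.55 in KO and 8.03 ± 0.26 in control recipients (n = 2 each), below all arrays of the other groups. Ezh1 was highest in MLL-AF9 KSLs (7.62 ± 0.07, n = 2), with no overlap with MLL-AF9 CMPs (7.21 ± 0.10, n = 3), and the other 7 pairs of neighbours in the order overlapped.

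Suz12 was highest in secondary control L-GMPs (9.60 ± 0.10, n = 2) and lowest in MLL-AF9 CMPs (8.77 ± 0.12, n = 3), with all neighbours in the order overlapping. Eed, the subunit that binds methylated lysine 27, ranged between 7.82 in MLL-AF9 CMPs and 8.30 on the primary KO L-GMP array. Its neighbours in the order all overlapped too, and its span was 2.31 times its standard deviation within groups. The gene lies at chr7:89954654-89980976, and its second probe set, with a mean of 3.97, was near the floor.

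Among the PRC1 ligases, Rnf2 was highest in secondary L-GMPs (8.32 ± 0.05 in KO and 8.21 ± 0.01 in control recipients, n = 2 each), then in KO CMPs (8.03 ± 0.05, n = 4), with no overlap between these 3 groups or with control CMPs (7.70 ± 0.16, n = 4). It was lowest in primary control L-GMPs (7.23 ± 0.56, n = 2) and in MLL-AF9 CMPs (7.29 ± 0.41, n = 3). Ring1, the paralogue at chr17:34020792-34024680, stayed between 6.32 in KO CMPs and 6.72 in MLL-AF9 KSLs, 2.24 standard deviations within groups. Bmi1 was highest in MLL-AF9 KSLs (8.38 ± 0.13, n = 2) and secondary L-GMPs (8.36 ± 0.02 in KO, 8.25 ± 0.16 in control), and control CMPs (7.60 ± 0.07) and GMPs (7.29 ± 0.12) stood apart from all groups above them except for MLL-AF9 CMP replicate 1 at 7.54.

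Cbx2 was highest in KO CMPs (7.49 ± 0.07, n = 4) and lowest in secondary KO L-GMPs (6.57 ± 0.07, n = 2), which did not overlap GMPs, the next group up (6.82 ± 0.10, n = 3). Cbx7, a Cbx subunit known from mouse blood stem cells (chr15:79915804-79971143), had means between 5.50 in primary control L-GMPs and 6.22 in MLL-AF9 KSLs with overlap throughout. Cbx8, a Cbx subunit that MLL-AF9 leukaemia cells have been shown to need in mice, was highest in secondary KO L-GMPs (6.59 ± 0.12, n = 2), which did not overlap the next group, control CMPs (6.12 ± 0.13, n = 4). It was lowest in MLL-AF9 KSLs (5.45 ± 0.05, n = 2). In secondary control L-GMPs its 2 arrays lay at 6.39 and 5.51.

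The members did not share a common pattern over the 9 group means, which are few points and share normalisation. Of 45 pairs of members 19 had a positive and 26 a negative Pearson r, with a median of −0.07. The highest was 0.838, between Ezh1 and Ring1, and the lowest −0.796, between Suz12 and Ring1, while Ezh2 and Bmi1 had −0.757. The genes whose group means followed a member most closely, among those spanning at least 1, were Chek1 (r = 0.957) and Zfp60 (r = 0.947) for Ezh2, Abat (0.952) and Nbeal2 (0.947) for Ezh1, and Smc6 (0.891) and Zfp330 (0.889) for Suz12. For Bmi1 they were Tespa1 (0.912) and Usp3 (0.911), for Rnf2 Cwf19l2 (0.929) and Cdc40 (0.926), for Ring1 Tecpr1 (0.913) and Abat (0.911), and for Eed Snord22 (0.813) and Cxcl10 (0.803). For Cbx2 they were Maml2 (0.960) and Rnf180 (0.954), for Cbx7 Orm3 (0.970) and Slc37a3 (0.951), and for Cbx8 Dusp3 (0.955) and Zfp617 (0.947). The promoter windows of 9 members had 54.7% to 74.0% G and C and 17 to 41 CpG dinucleotides, against medians of 52.7% and 7 over all windows.

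The wider Polycomb machinery was read from lists chosen with earlier results of these data known. In all these lists the KO L-GMP values come from a single leukaemia, so its own traits and the KO genotype cannot be told apart. Values with its arrays counted as 1 sample are not given for these lists. Of 22 other PRC1 subunits measured, KO L-GMPs against GMPs had 3 higher and 2 lower, where 3.89% of all genes were called higher and 6.49% lower. Auts2, which joins Pcgf3 or Pcgf5 in a variant PRC1, rose by 1.23, Bcor, the partner of Pcgf1, by 0.86 and Pcgf5 by 0.66, while Pcgf6, of the variant PRC1 with Mga and L3mbtl2, fell by 1.03 and Scml2 by 0.84 (adjusted p between 0.00245 and 0.0366). In control L-GMPs against GMPs 1 was higher (Bcor, 0.46) and 3 lower, a smaller share than the 25.3% called among all genes. Pcgf6 fell by 1.60 (SE 0.22, adjusted p = 0.000291), Scml2 by 0.84 and L3mbtl2 by 0.62. The median change of the list was −0.13 in KO and −0.22 in control L-GMPs, against −0.01 and −0.02 over all genes.

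Pcgf6 was 5.43 ± 0.57 in secondary KO L-GMPs and 5.65 in the primary one, 4.96 ± 0.35 in secondary and 4.97 ± 0.37 in primary control L-GMPs (n = 2 each), and 6.57 ± 0.03 in GMPs (n = 3). All L-GMP arrays were below all GMP arrays. Against the progenitors it fell by 1.31 in KO L-GMPs (adjusted p = 0.000764) and by 1.88 in control L-GMPs (adjusted p = 6.87e-06). Phc1, a polyhomeotic subunit of canonical PRC1, also fell there, by 0.88 in KO (adjusted p = 0.0026) and by 0.97 in control L-GMPs (adjusted p = 0.000372). In KO L-GMPs Auts2 rose over the progenitors by 1.30 and Pcgf5 by 1.23, so 2 were higher and 2 lower in KO, and none higher and 2 lower in control L-GMPs, beside 13.2% and 19.0% of all genes called.

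In KO against control CMPs, where 4.91% of all genes were called, 2 of the 22 were higher and none lower: Bcor rose by 1.04 (SE 0.14, adjusted p = 0.000431), at 8.14 ± 0.10 in KO and 7.10 ± 0.15 in control CMPs (n = 4 each), and Phc1 by 0.75 (SE 0.16, adjusted p = 0.0127). In KO against control L-GMPs, where 3.27% of all genes were called, 2 were higher and none lower. The KO side is the single KO leukaemia, which arose in a recipient given vectors expressing IL-3 and GM-CSF. Auts2 rose by 1.61 (SE 0.21, adjusted p = 0.000393), with 6.95 ± 0.64 in secondary and 6.94 in primary KO against 4.79 ± 0.16 in secondary and 5.87 ± 0.17 in primary control L-GMPs, and Pcgf5 by 0.80 (SE 0.18, adjusted p = 0.0215). The interaction, L-GMP minus CMP, was 1.43 for Auts2 (adjusted p = 0.0104).

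In secondary against primary control L-GMPs 2 other PRC1 subunits were higher, Yaf2 (1.14) and Pcgf5 (0.95), and 2 lower, Auts2 (−1.08) and Mga (−0.65), where 7.7% of all genes were called. In MLL-AF9 CMPs against KO CMPs none was higher and 3 were lower, Pcgf5 (−0.82), Mga (−0.66) and Bcor (−0.62), where 3.36% of all genes were called lower, and in MLL-AF9 CMPs against KSLs Phc3 was the 1 called (−0.98). Among 8 further PRC2 subunits at most 1 was called in a comparison, near or below the share of all genes in those with L-GMPs against GMPs or progenitors (10.4% to 25.3%). Phf1, an accessory subunit with a Tudor domain, rose in L-GMPs over GMPs by 0.60 in KO and 0.64 in control cells. Phf19 rose over the progenitors by 0.69 in each genotype, and Mtf2 fell by 0.63 in MLL-AF9 CMPs against KO CMPs.

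The enzymes that remove the PRC2 mark are Kdm6a (UTX) and Kdm6b (JMJD3). Kdm6b rose by 1.53 in KO CMPs (SE 0.20, adjusted p = 0.000302), at 8.48 ± 0.21 against 6.95 ± 0.12 in control CMPs (n = 4 each). It also rose by 1.01 in KO L-GMPs over GMPs (adjusted p = 0.012) and fell by 1.01 in MLL-AF9 CMPs against KO CMPs (adjusted p = 0.0145). Kdm6a rose by 0.81 in KO against control L-GMPs (SE 0.15, adjusted p = 0.00827) and fell by 0.52 in control L-GMPs against GMPs (adjusted p = 0.0195). The KO L-GMP values of both genes come from the single KO leukaemia. Against the progenitors both fell in control L-GMPs, Kdm6a by 0.95 and Kdm6b by 0.66, and neither was called in KO L-GMPs.

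**Figure D4:**
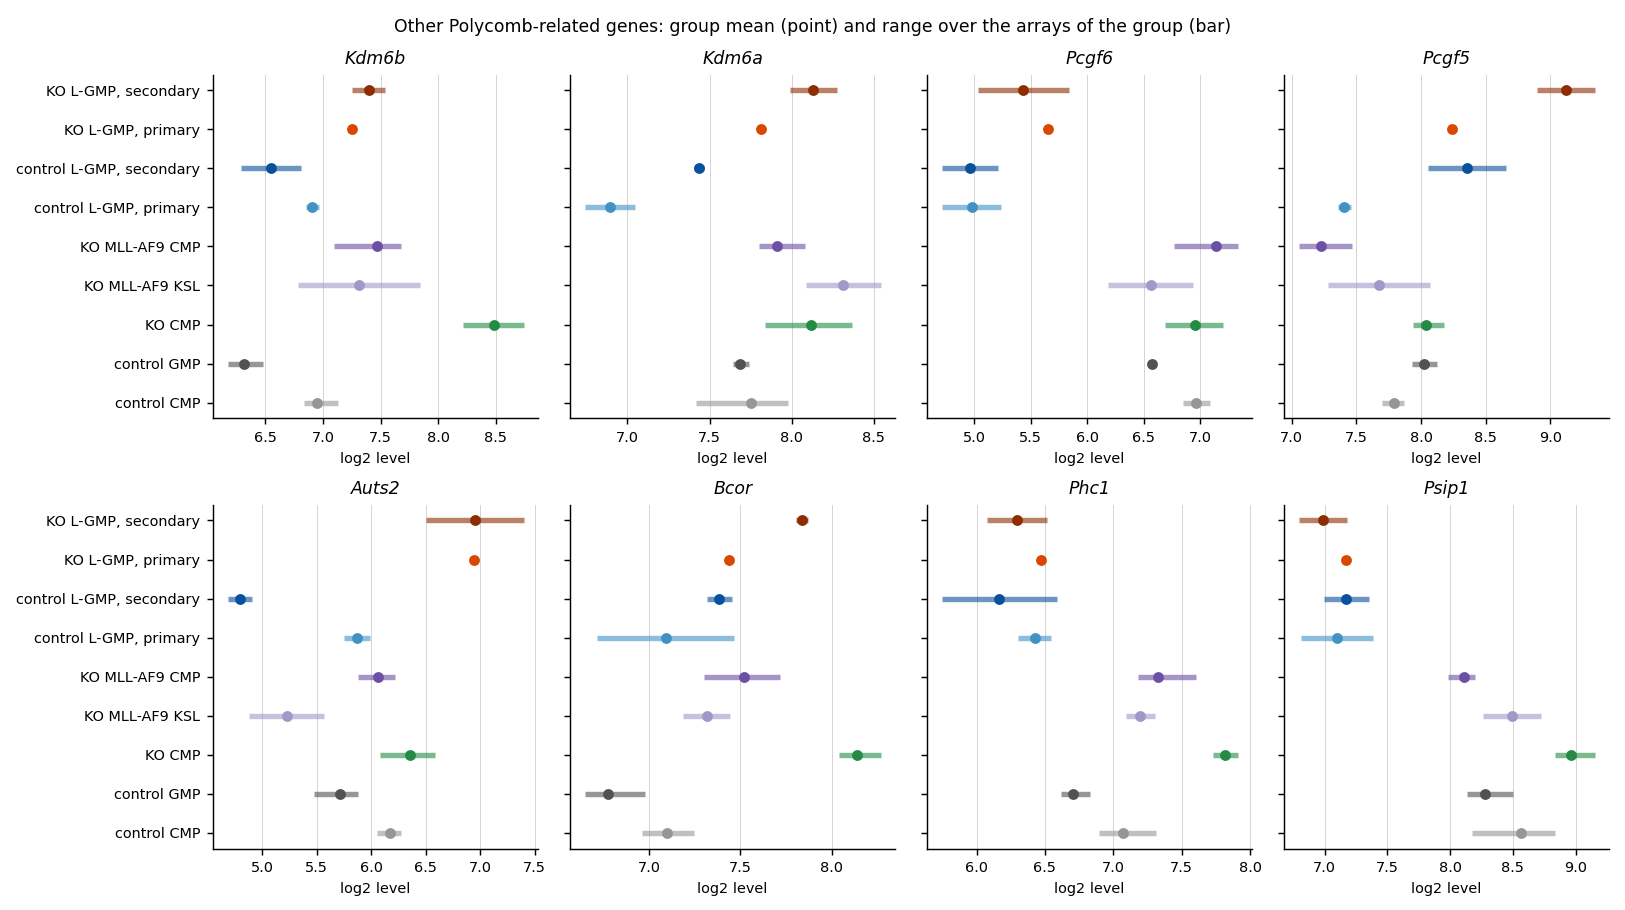
Mean log2 level (point) and range over arrays (bar) in the 9 groups of the demethylases Kdm6b and Kdm6a, the PRC1 subunits Pcgf6, Pcgf5, Auts2, Bcor and Phc1, and the MLL partner Psip1. Kdm6b is highest in KO CMPs at 8.48, and Pcgf6 and Psip1 are lower in all L-GMP groups than in the other 5.

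The PR-DUB complex removes ubiquitin from histone H2A. Of its 7 measured genes Foxk2 fell by 0.67 in KO L-GMPs against GMPs, and Foxk1 and Foxk2 fell by 0.50 and 0.49 in control L-GMPs against GMPs, beside 6.49% and 14.7% of all genes called lower. Foxk2 fell by 0.40 in KO L-GMPs against the progenitors, Mbd6 fell by 0.83 in secondary against primary control L-GMPs and Asxl1 fell by 0.55 in MLL-AF9 CMPs against KO CMPs. Trithorax-group proteins keep genes active and oppose Polycomb. Of 13 measured, Psip1, a chromatin tether of MLL, fell by 1.20 in KO L-GMPs (adjusted p = 0.00141) and by 1.14 in control L-GMPs (adjusted p = 0.000694) against GMPs, and Men1, another MLL partner, fell by 1.03 in control L-GMPs. Kmt2c rose against GMPs by 0.90 in KO and 0.61 in control L-GMPs, and Dpy30 fell by 0.62 and 0.50. Those calls made 1 higher and 2 lower in KO, and 2 higher and 3 lower in control L-GMPs, the other riser being Ash2l at 0.44, where 10.4% and 25.3% of all genes were called.

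Known Polycomb-repressed genes, a list of 20 with 18 measured, include HOX genes that MLL fusions are also known to switch on. Against GMPs 7 were higher and none lower in KO L-GMPs, and 5 were higher and 1 lower in control L-GMPs, with median changes of 0.28 and 0.32. Of all genes 3.89% were called higher in the KO and 10.6% in the control comparison, with medians of −0.01 and −0.02. Hoxa9 was 7.90 ± 0.02 in secondary and 7.40 in primary KO L-GMPs, 7.75 ± 0.12 in secondary and 7.97 ± 0.05 in primary control L-GMPs, and 5.39 ± 0.42 in GMPs. It rose by 2.26 in KO (adjusted p = 0.00773) and by 2.47 in control L-GMPs (adjusted p = 0.00153). Igf2bp3, an RNA-binding protein of fetal blood cells, rose by 3.98 in KO and 3.16 in control L-GMPs. Hoxb5 and Hoxb4 rose in KO against control L-GMPs, by 2.30 (adjusted p = 0.000202) and 1.40 (adjusted p = 0.00347). The KO side of this comparison was the single KO leukaemia.

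Cdkn2a and Cdkn2b, cell cycle inhibitors silenced by Bmi1-containing PRC1, were called in no comparison. Cdkn2a averaged 5.11 in secondary and 4.93 in primary KO L-GMPs, 4.66 in secondary and 5.06 in primary control L-GMPs, and 4.92 in GMPs. In MLL-AF9 CMPs it was 5.68 ± 0.89 (n = 3), with 1 array at 6.70. Hmga2 rose by 1.23 in KO CMPs (adjusted p = 0.00178) and fell by 1.30 in MLL-AF9 CMPs against KO CMPs (adjusted p = 0.00337).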

How the data were processed

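Expression was measured in 23 samples, each on 1 Affymetrix array. The deposited log2 values cover 34760 probe sets. RMA is the tool named for them, per the submitters' processing notes, and no version of it is stated there. Probe sets with 1 gene symbol in the platform annotation numbered 21640, those with several 1321 and those with none 11799. Of the first, 21553 matched RefSeq genes of GRCm38.p6 by Entrez identifier. Where a gene had more than 1 probe set (954 genes), the brightest by mean stood for it, and 19937 genes remained.

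Arrays were put into 9 groups by the labels. Group means were fitted to all 23 arrays with limma 3.58.1 in R 4.3.3, using eBayes with a trended prior. The code was tested on simulated data. The members, gene lists, comparisons and alternatives were chosen with earlier results of these data known. All 10 members were named. Of the other lists, up to 4 called genes of a list with the largest changes in a comparison could be named, Cebpa served to check the labels, Kit, Cd34, Fcgr3 and the marker lists to check the cell types, and for each member the 2 genes with the most similar group means were given. Cdkn2a, Fcgr3 and Ash2l were named after their values were seen. Replicate numbers pair samples for MLL-AF9 CMPs and KSLs, where the labels give the same mouse (correlations of deviations 0.45 and 0.26), and not elsewhere, where these lay between −0.205 and 0.126. The number of arrays limits the precision.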

Additional observations from a re-analysis of the deposited data

Results flagged for a closer look

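Rnf2 in control CMPs had 1 array apart from the others: control CMP replicate 3 was at 7.46, against 7.76 to 7.80 on the other 3 arrays. Of 20 sets of arrays tested (a member in a group of 4), this was the 1 that stood apart by Dixon's test, and chance gives about 1 in 20.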

How the results depend on the processing

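The limits are few arrays, a single KO leukaemia and unequal noise. Counted were the members and comparisons called in the main fit or in any alternative other than leaving out arrays. Over those alternatives, 210 values of members kept direction and side of the threshold, 24 passed it newly, 42 missed it and 4 reversed. Over the left-out arrays these numbers were 191, 13, 24 and 1. The values kept include some not called in the main fit, so they do not measure how stable the calls are. Each call of the main fit ended in at least 1 of those alternatives. The cause of these changes was not tested. With array weights the number of members called was 4 in KO against control CMPs, 1 in GMPs against CMPs, 0 in control L-GMPs against progenitors, 0 in secondary against primary control L-GMPs and 1 in the difference of KO effects. In fits of the compared groups alone, it was 4 in KO against control CMPs, 0 in L-GMPs of each genotype against progenitors, 0 in secondary against primary control L-GMPs and 1 in MLL-AF9 against KO CMPs. With the KO L-GMP arrays averaged to 1 sample it was 0 against progenitors and 0 against GMPs.

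With primary L-GMPs alone, an alternative chosen after seeing the data, it was 1 in L-GMPs of each genotype against progenitors (Ezh1 in KO, Cbx7 in control), 0 in KO L-GMPs against GMPs and 1 in the difference of KO effects, and with secondary L-GMPs alone 5 in KO and 4 in control L-GMPs against progenitors. With primary L-GMPs alone Ezh2 reversed against progenitors, to 0.19 in KO and 0.11 in control L-GMPs, and Rnf2 in control L-GMPs reversed to −0.13 against progenitors and −0.38 against GMPs. In the main fit, with primary and secondary L-GMPs, the Rnf2 change in control L-GMPs against GMPs was 0.11. Leaving out single arrays gave that change a range of −0.089 to 0.31, the lowest without primary control replicate 1.

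Leaving out single arrays, the members called were 1 to 3 in KO L-GMPs against GMPs, 2 to 5 in KO and 2 to 4 in control L-GMPs against progenitors, 1 to 2 in MLL-AF9 against KO CMPs, 0 to 1 in MLL-AF9 CMPs against KSLs, 0 to 2 in secondary against primary control L-GMPs and 0 to 1 in the difference of KO effects.

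With the replicate number as a block, fitted on the arrays of the compared groups, the members called were 1 (Cbx2) in KO against control CMPs and 0 in each of the other comparisons. The block and the loss of the other arrays act together there. The like fit without the block called 4 members in KO against control CMPs, 1 in MLL-AF9 against KO CMPs and 2 in L-GMPs of each genotype against GMPs (Bmi1 with Rnf2 in KO and with Ezh2 in control), and 0 in the other comparisons. Changes stayed similar in size, as for Ezh1 (−0.44) and Suz12 (0.52) in control L-GMPs against progenitors. Only MLL-AF9 CMPs and KSLs are paired by mouse. There the block left 1 residual degree of freedom, and 0 genes were called with it and 0 in the like fit without it, against 662 in all arrays and 1045 in all arrays with the animal as a random block.

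The count of all genes called moved by more than 1.5 times with some settings. It was 979 in KO against control CMPs and 3762 with array weights, 209 in GMPs against CMPs and 1257 with array weights, 651 in KO against control L-GMPs and 11 in these groups alone. In KO L-GMPs against GMPs it was 2068, and 5119 with array weights. It was 2632 in KO and 3780 in control L-GMPs against progenitors, and 347 and 493 in the compared groups alone. It was 5052 in control L-GMPs against GMPs and 3258 in these groups alone, 972 in MLL-AF9 against KO CMPs and 335 with array weights, 1536 in secondary against primary control L-GMPs and 151 with array weights, and 558 in the difference of KO effects and 1280 with array weights.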
